A study of Mus musculus with 21 samples.

Results

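Afp and 7 other genes for serum proteins (Alb, Ttr, Apoa1, Apoa2, Apoa4, Apob and Rbp4) were followed through the pharyngeal arches and the outer ear of the mouse embryo. They were picked by gene symbol, 8 of the 24594 genes in each count table, because Afp showed the widest rise of wild-type PA3 over PA2 and varied between PA3 libraries, and the question was whether the other members varied with it. The level of Afp in PA3 against PA2 of WT embryos is therefore given as a description without a test. RNA was sequenced in 2 series of 3 libraries per group. The genotype series sampled 2 of the pharyngeal arches, PA2 and PA3, swellings of the embryo from which parts of the face, ear and neck form. They were dissected from embryos of E10.5 (embryonic day) that were either wild type (WT) or homozygous for a deletion of HIRE1 (HIRE1del, named delta-E3 in the sample titles). HIRE1 is a distal region that regulates Hoxa genes, and the deletion line was made with CRISPR in C57Bl/6J zygotes. In the stage series, Wnt1::Cre;ROSA-RFP embryos were used without a deletion, with PA2 at E10.5 and the pinna, the outer ear derived from PA2, at E12.5 and E14.5. In these embryos Cre driven by the Wnt1 promoter marks neural crest, a migratory population that gives rise to much of the mesenchyme in the arches, and the marked cells were sorted. No age or treatment differed between WT and HIRE1del, all mice had a mixed C57Bl/6J;CD1 background, embryos of different sex were pooled, and how many embryos went into a library was not stated.

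The members encode proteins that the liver and the endoderm of the yolk sac secrete into the circulation of the fetus. Afp and Alb are neighbouring genes of 1 family of carriers, and Afp is the main serum protein of the fetus while Alb takes over in the adult. The apolipoproteins coat lipid particles, Apob as the scaffold of the large particles and Apoa1, Apoa2 and Apoa4 mainly on smaller or intestinal ones, and Ttr and Rbp4 together carry retinol, with Ttr also carrying thyroid hormone. In the embryo the genes are switched on in visceral endoderm, the outer layer of the yolk sac, and in the liver bud under factors of the HNF1, HNF4 and FOXA families.

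Library totals ranged from 25804400 to 32210100 counts in the genotype series and from 25814200 to 49058900 counts in the stage series, as rounded values. All libraries carry the label cranial neural crest cells, but for the genotype series dissection is described without a sort, and markers of other cells were abundant there. The summed level of 10 erythroid genes was 1600 to 3430 CPM (counts relative to the TMM-scaled library size) in PA2 and 12900 to 25400 CPM in PA3, against 2.38 to 12.6 CPM in the sorted libraries. For 11 epithelial genes the sums were 304 to 373 CPM in PA2, 543 to 856 CPM in PA3 and 11.8 to 47.7 CPM after the sort. Hoxa2, the check of the deletion, had 1896, 2201 and 2736 counts in PA2 of WT and 153, 122 and 192 in PA2 of HIRE1del, and Hoxa3 had 773 to 922 counts in PA3 of WT and 155 to 216 in PA3 of HIRE1del.

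The promoters of Afp and Alb are shown because the neighbours differed so widely in these libraries, and those of Apoa1 and Apob as examples of members whose levels followed that of Afp. Apoa4, which also followed Afp, is not shown, and its promoter held none of the motifs marked here. On chromosome 5 of GRCm38, Alb (ENSMUSG00000029368) spans chr5:90460897-90476602 and Afp (ENSMUSG00000054932) chr5:90490737-90508907, both on the plus strand. Apoa1 (ENSMUSG00000032083) lies at chr9:46228580-46230466 and Apob (ENSMUSG00000020609) at chr12:7977648-8016835, also on the plus strand. The sequences are from the RefSeq promoter table (GRCm38.p6), run 5′ to 3′, and end before the earlier of the RefSeq and GENCODE starts. They cover chr5:90490464-90490713 (Afp), chr5:90460620-90460869 (Alb), chr9:46228380-46228579 (Apoa1) and chr12:7977427-7977647 (Apob). Capitals mark every match on either strand to TATAAA (the box near many starts), GTTAAT (HNF1 half-site), TGTTTAC or TGTTTGC (FOXA core), CAAAGTC (HNF4 core) or CCAAT (the box of NF-Y).
Afp: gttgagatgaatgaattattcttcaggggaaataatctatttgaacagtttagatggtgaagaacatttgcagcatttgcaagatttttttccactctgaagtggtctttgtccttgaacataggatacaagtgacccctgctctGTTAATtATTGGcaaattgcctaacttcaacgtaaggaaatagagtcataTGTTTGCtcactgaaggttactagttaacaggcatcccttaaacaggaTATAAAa
Alb: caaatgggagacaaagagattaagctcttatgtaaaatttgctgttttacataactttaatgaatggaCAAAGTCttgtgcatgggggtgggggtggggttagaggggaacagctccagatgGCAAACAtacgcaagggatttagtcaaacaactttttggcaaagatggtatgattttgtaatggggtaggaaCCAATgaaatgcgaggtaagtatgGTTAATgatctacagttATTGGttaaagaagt
Apoa1: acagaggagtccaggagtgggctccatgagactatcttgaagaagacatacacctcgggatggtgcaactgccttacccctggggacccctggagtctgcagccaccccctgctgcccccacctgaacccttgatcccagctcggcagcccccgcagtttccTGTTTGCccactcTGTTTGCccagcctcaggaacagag
Apob: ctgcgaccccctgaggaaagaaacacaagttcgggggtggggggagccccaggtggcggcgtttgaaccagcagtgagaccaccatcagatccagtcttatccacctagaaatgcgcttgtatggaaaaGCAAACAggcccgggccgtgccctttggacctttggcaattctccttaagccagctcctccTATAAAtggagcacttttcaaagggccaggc

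RefSeq promoters were found for 7 of the 8 members, Ttr being the exception, with 9 records in all. Within the 250 bases before the RefSeq start, TGTTTGC was present in 4 members (Afp, Alb, Apoa1, Apob) and TGTTTAC in Apoa2 and Rbp4, against 4.3% and 3.17% of all 32851 promoters of that length. GTTAAT was present in Afp and Alb (6.43% of all promoters) and CAAAGTC in Alb (3.84%). TATAAA was found in 4 members (12.4%) and CCAAT in 4 members (33.8%). The Afp and Alb promoters therefore shared the HNF1, FOXA and CCAAT letters, although their counts in these libraries differed widely. Apoa1 held TGTTTGC at 2 places and no other of these motifs, and Apoa4 held none of them. In the sequences shown no match overlapped another, and a match is no measure of binding.

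Afp, the fetal serum carrier, was present in every PA3 library, at widely different levels, and nearly absent outside PA3. In PA3 of WT its level was 250.1, 35.2 and 13.6 CPM in replicates 1, 2 and 3, and in PA3 of HIRE1del 8.64, 9.72 and 23.9 CPM. In PA2 it was 0.116, 0 and 0.0924 CPM in WT and 0.0376, 0.0779 and 0 CPM in HIRE1del, which is at most 3 counts in any library. WT replicate 1 was far above the other 5 PA3 libraries, whereas the WT and HIRE1del groups overlapped because HIRE1del replicate 3 exceeded WT replicate 3. The sum of counts in WT was 7948 in PA3 and 6 in PA2, a CPM ratio of 1350 (95% counting interval 620 to 3680, counting error only). The other members are given in the same way, without a test, in a comparison where 19.1% of all genes tested were called higher in PA3. The CPM ratio in WT was 54.1 for Apoa1 (33.1 to 95), 18.8 for Apoa2 (10.0 to 40.0), 15.7 for Rbp4 (11.4 to 22.3) and 6.34 for Apob (5.85 to 6.87). These ratios rested largely on WT replicate 1 of PA3, and without it they were 345 for Afp, 17.4 for Apoa1, 5.29 for Apoa2, 8.48 for Rbp4 and 1.91 for Apob. In bulk tissue a change in the number of cells of a type and a change in RNA per cell cannot be told apart.

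Alb, which encodes albumin, was at or near 0 in every library. A single count was seen in PA3 of WT and none in PA3 of HIRE1del, where a count of 0 over the group allows up to 0.0357 CPM. PA2 held 1 count in WT and 0 in HIRE1del. The stage libraries held 0 to 3 counts each. Thus, in PA3 of WT, 7948 counts of Afp stood beside 1 count of its neighbour, and Afm, the next gene of the family downstream of Afp (chr5:90518932-90553543), had 6, 1 and 3 counts in the WT libraries.

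Ttr and Rbp4, the carriers of thyroid hormone and retinol, were also at their peak in PA3 of WT replicate 1. Ttr (ENSMUSG00000061808, chr18:20665280-20674321, plus strand) had 15.6, 2.39 and 1.09 CPM in PA3 of WT and 0.935, 1.05 and 1.63 CPM in PA3 of HIRE1del. No count was seen in the 3 PA2 libraries of WT, so that the level in PA3 of WT was at least 173-fold higher (166-fold for Apoa4), set against a floor of 3 counts over the group. Without WT replicate 1 of PA3 the bound was 49.5-fold for Ttr and 49.5-fold for Apoa4. Rbp4 (ENSMUSG00000024990, chr19:38116629-38125281, minus strand) had 14.4, 3.86 and 3.76 CPM in PA3 of WT and 2.43, 3.18 and 2.61 CPM in PA3 of HIRE1del. Unlike Afp and Ttr, Rbp4 was present in PA2, with 0.697, 0.421 and 0.277 CPM in WT and 0.526, 0.234 and 0.222 CPM in HIRE1del. The 3 WT libraries of PA3 were all above the 3 HIRE1del libraries for Rbp4, and the groups overlapped for Ttr. How many of all genes were separated in this way was not counted.

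Among the apolipoproteins, Apoa1, the main protein of high-density lipoprotein, had 25.2, 4.97 and 1.61 CPM in PA3 of WT and 1.31, 2.24 and 2.92 CPM in PA3 of HIRE1del. In PA2 it did not exceed 0.31 CPM. Apoa4, from the same gene cluster (ENSMUSG00000032080, chr9:46240696-46243459, plus strand), had 14.9, 2.64 and 0.869 CPM in PA3 of WT and 0.748, 0.629 and 1.32 CPM in PA3 of HIRE1del, with a single count in all 6 PA2 libraries. Of its exon bases, 1266 are shared with Gm10680 and Gm47528 on the other strand, and since the libraries are described as unstranded while the counting used orientation, reads of these genes could not be told apart. Apoa2, the second protein of high-density lipoprotein (ENSMUSG00000005681, chr1:171225054-171226379, plus strand), was the lowest of the 3, with 5.7, 0.715 and 0.515 CPM in PA3 of WT and 0.337, 0.944 and 0.695 CPM in PA3 of HIRE1del. For each of the 3 genes WT replicate 1 was the highest library, and the WT and HIRE1del groups of PA3 overlapped.

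Apob, the scaffold of large lipoproteins, was the only member at more than 1 CPM in PA2. Its level was 8.79, 7.72 and 8.1 CPM in PA2 of WT and 4.1, 7.48 and 4.88 CPM in PA2 of HIRE1del, against 134, 19.9 and 11.8 CPM in PA3 of WT and 6.55, 6.78 and 13.4 CPM in PA3 of HIRE1del. The 3 WT libraries of PA3 exceeded those of PA2, while in HIRE1del the arches overlapped. Scaled by exon length, Afp led in PA3 of WT with 29.6 ± 38.8 CPM per kb (SD, n = 3), and the other members followed between 8.58 ± 10.3 (Apoa1) and 3.38 ± 4.2 (Apoa4), apart from Alb at 0.00458 ± 0.00793. WT replicate 1 was the highest library for all of these but Alb, so the SDs do not compare members measured in the same libraries. Library by library, Afp stood above each other member in PA3 of both genotypes. In WT replicates 1, 2 and 3 it had 74.26, 10.45 and 4.05 CPM per kb. The next member had 20.42 (Apoa1), 4.017 (Apoa1) and 2.803 (Rbp4). Alb was below the rest in each library, and none of these differences was tested. In PA2 of WT the order was different, with Apob at 0.589 ± 0.0391 CPM per kb, Rbp4 at 0.346 ± 0.159, Apoa2 at 0.227 ± 0.203, Apoa1 at 0.153 ± 0.0865 and Afp at 0.0206 ± 0.0182.

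**Figure D1:**
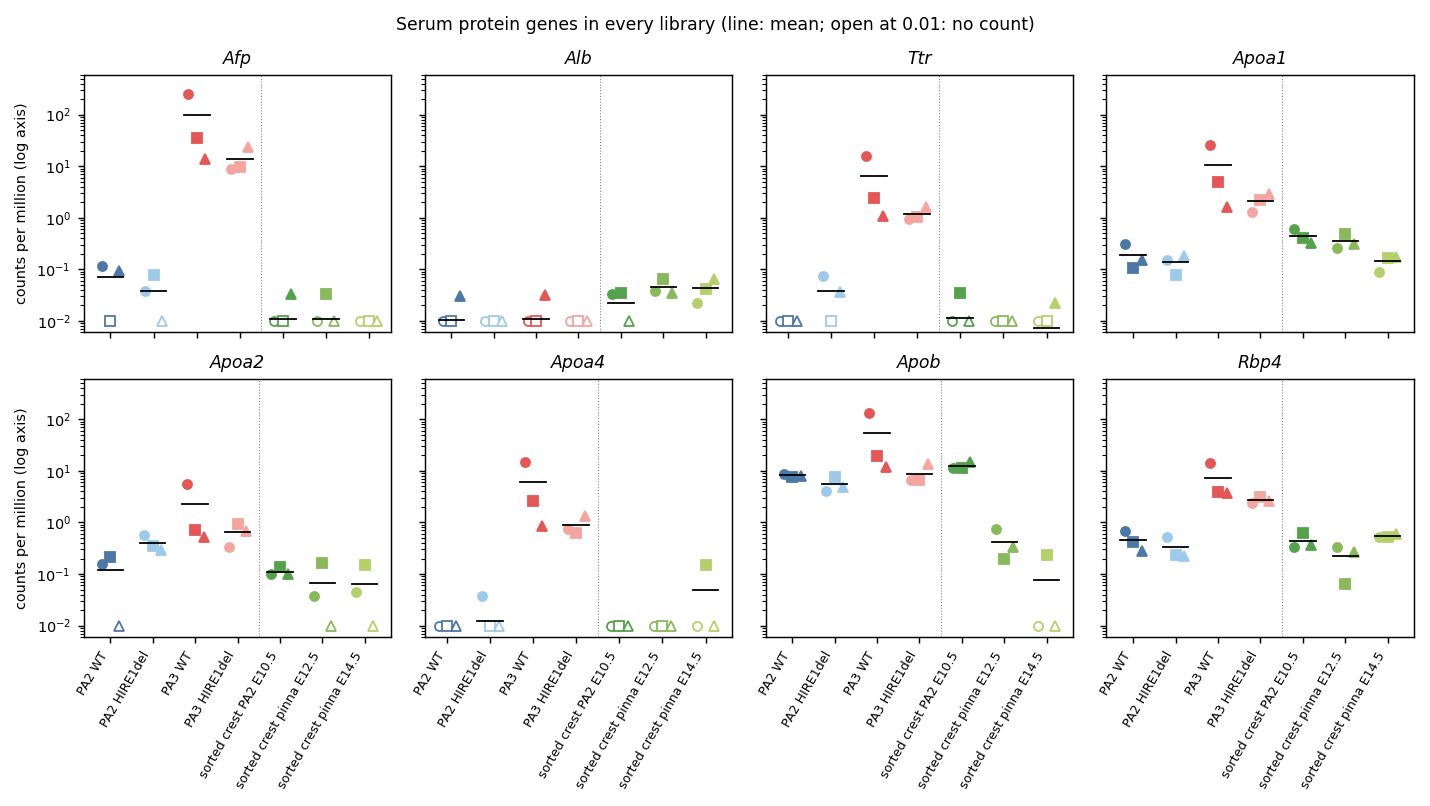
Levels of the 8 members in CPM (log axis) in each library of the 7 groups, with a line at the group mean and open symbols at 0.01 for libraries without a count. Circles, squares and triangles are replicates 1, 2 and 3, and the dotted line separates the genotype series from the sorted stage series. Afp reached 250.1 CPM in PA3 WT replicate 1 and 8.64 to 35.2 CPM in the other 5 PA3 libraries.

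Ttr, Apoa1, Apoa4 and Apob varied together with Afp between the PA3 libraries, while the relation for Apoa2 and Rbp4 rested on single libraries. For Afp the highest of the 6 PA3 libraries was 28.9-fold above the lowest, and for Apoa4 23.6-fold, for Apob 20.4-fold, for Apoa1 19.3-fold, for Apoa2 16.9-fold, for Ttr 16.7-fold and for Rbp4 5.93-fold. Over the 13933 tested genes with a mean of at least 1 CPM in PA3, the median of this ratio was 1.24 and the 99th percentile 4.27. Afp was chosen in part for this spread, so its own place among these genes was fixed by the choice. Apoa2 did not pass the filter and is not one of these genes. For Ttr, Apoa1, Apoa4 and Apob, the counts per 100 counts of Afp moved less than the levels. Ttr lay between 6.24 and 10.8, Apoa4 between 5.53 and 8.66 and Apob between 53.5 and 86.3, which are ranges of 1.73-fold, 1.57-fold and 1.61-fold. Apoa1 ranged from 10.1 to 23.0 (2.28-fold) and Apoa2 from 2.03 to 9.71 (4.78-fold). Rbp4 varied as much relative to Afp (5.67-fold) as in its own level, at 5.77 in WT replicate 1 and 27.6, 28.1 and 32.7 in WT replicate 3 and HIRE1del replicates 1 and 2.

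The relation was tested for 6 members, since Alb had 1 count in all, on log2(CPM + 0.5) with two-sided exact permutation of the pairings over the 6 libraries and Benjamini-Hochberg adjustment over the 6 relations. Apob gave Pearson r = 0.993 (permutation p = 0.00139, adjusted p = 0.00417) and Ttr r = 0.986 (permutation p = 0.00139, adjusted p = 0.00417). Both ranked the 6 libraries exactly as Afp did (Spearman rho = 1, permutation p = 0.00278, adjusted p = 0.00833). Apoa4 gave r = 0.991 (permutation p = 0.00278, adjusted p = 0.00556) and Apoa1 r = 0.983 (permutation p = 0.00417, adjusted p = 0.00625), each with rho = 0.943 (permutation p = 0.0167, adjusted p = 0.025). For Rbp4 r was 0.921 (permutation p = 0.0347, adjusted p = 0.0417) and rho 0.829 (permutation p = 0.0583, adjusted p = 0.07). For Apoa2 r was 0.911 (permutation p = 0.0458, adjusted p = 0.0458) and rho 0.657 (permutation p = 0.175, adjusted p = 0.175). The share of all genes that reach such an r with Afp over these 6 libraries was not counted. WT replicate 1, the highest library for Afp, was also the highest PA3 library for 20.7% of 17841 genes. The members were chosen with earlier results of these data known, and the adjustment covers only these 6 relations.

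Part of this rested on single libraries. Without the 2 libraries farthest from the median level of Afp (WT replicates 1 and 2), r over the 4 left was 0.97 for Ttr, 0.951 for Apoa4, 0.924 for Apob and 0.746 for Apoa1, but 0.248 for Apoa2 and -0.0298 for Rbp4, whose relation with Afp therefore rested on those libraries. Without WT replicate 1 alone, the adjusted permutation p was 0.025 for Ttr (r = 0.975), 0.025 for Apob (r = 0.966) and 0.0333 for Apoa4 (r = 0.95), 0.05 for Apoa1 (r = 0.899), 0.49 for Rbp4 (r = 0.418) and 0.575 for Apoa2 (r = 0.321). Since 2 genotypes were pooled, the genotype means were also removed, and r was then between 0.874 (Rbp4) and 0.992 (Apob). These values are a description without a p-value, since centred values cannot be exchanged between genotypes in a permutation. Within a genotype there were 3 libraries, too few for a correlation.

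**Figure D2:**
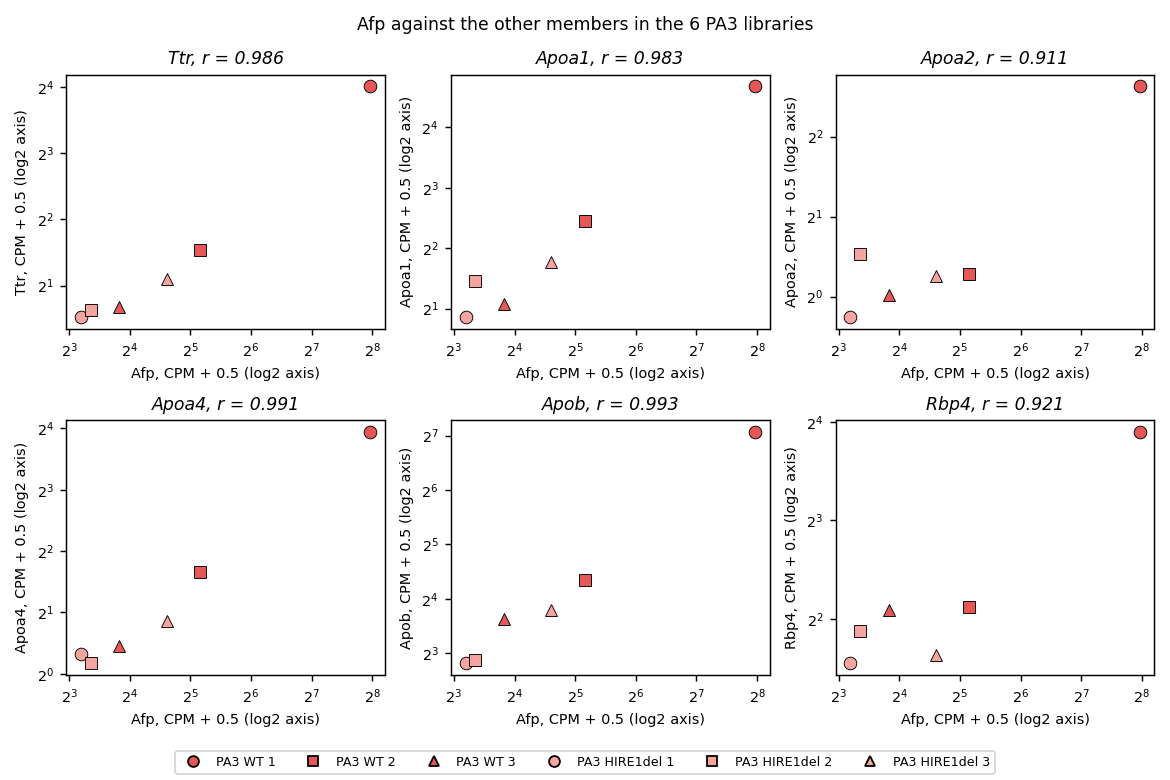
Level of 6 members against that of Afp in the 6 PA3 libraries, both as CPM + 0.5 on log2 axes, with Pearson r of the log2 values above each panel. Symbols give the genotype and the replicate. WT replicate 1 lies alone at the upper right in each panel, and among the other 5 libraries Ttr, Apoa4 and Apob still rise with Afp while Apoa2 and Rbp4 show no clear order.

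Among the 14382 other genes tested, those most like Afp were ranked by Pearson r of log2(CPM + 0.5) over the 12 libraries of the genotype series, as a description. When the group means were removed, which leaves the variation between replicates, 4 of the 10 leading genes were members, namely Apoa4 (r = 0.981), Ttr (r = 0.975), Apob (r = 0.975) and Apoa1 (r = 0.97). The others were Fga (0.977), a fibrinogen chain, Hnf4a (0.973), a nuclear receptor of liver and visceral endoderm, Cubn (0.971), an uptake receptor of visceral endoderm, Sfmbt2 (0.943), Pole (0.933) and 2310057M21Rik (0.928). Rbp4 ranked 61st (r = 0.813), and at 0.00843 without PA3 WT replicate 1. By levels, which also carry the difference between arches, the 10 leading genes were Cubn (0.982), Myh14 (0.978), Rbp4 (0.977), Fmo2 (0.975), Plce1 (0.975), Nav2 (0.974), Srrm4 (0.974), Dnajc22 (0.973), Apoa1 (0.973) and Tcn2 (0.972). Apob ranked 2012th in that order (r = 0.792), since it was present in PA2. The points of these correlations share libraries, arches and genotypes.

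Genes of other lists stood in the same libraries as follows. Of the genes with at least 10 counts over the 6 PA3 libraries, WT replicate 1 was both the highest library and at least 2-fold above the median of the other 5 for 7 of 7 members, 5 of 6 visceral endoderm genes, 16 of 28 other hepatic secreted proteins and 4 of 19 hepatic endoderm factors, and for 3.28% of all 17841 such genes. Afp is among the 7 members and was chosen in part for its spread over these libraries, so it adds nothing to that count. Cubn, for example, had 1918 counts in WT replicate 1 and 115 to 296 in the other 5 libraries, Fga 270 against 10 to 34, and Hnf4a 139 against 14 to 31. Rhox5, another visceral endoderm marker, had no count in any library of the genotype series. No gene of the epithelial (0 of 11), pharyngeal endoderm (0 of 9), endothelial (0 of 6), erythroid (0 of 10), heart muscle (0 of 6), crest mesenchyme (0 of 10) or transport partner (0 of 17) lists met this criterion. Without the 2-fold condition, 8 of 11 epithelial and 4 of 9 pharyngeal endoderm genes were highest in that library, beside 20.7% of all genes. For 9 of 10 erythroid genes it was the lowest PA3 library, beside 3070 of all 17841 genes, with Hba-x at 123864 counts there and 151858 to 236618 in the others. The summed level of the 7 visceral endoderm genes was 75.5 to 194 CPM in PA3 of WT, 74 to 80.5 CPM in PA3 of HIRE1del and 52.8 to 79.1 CPM in PA2. In PA3 much of this sum came from Lrp2 (34.7 to 80.6 CPM) and Dab2 (27.7 to 35.2 CPM). Amn, Spink1 and Trap1a had medians of 0.59, 0.174 and 0.186 CPM there, and Cubn averaged 0.719 CPM in PA2. The part of these genes, or of tissue taken with the arch, in the level of Afp was not tested.

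**Figure D3:**
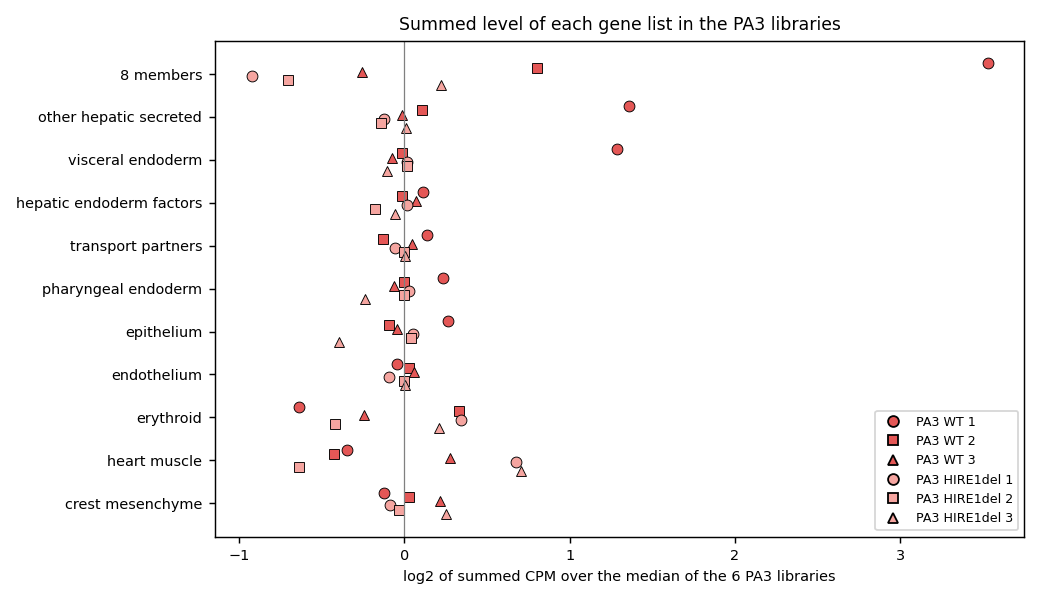
Summed CPM of each gene list in the 6 PA3 libraries, as log2 of the ratio to the median of the 6, with the members in the top row. PA3 WT replicate 1 stands far to the right for the members, the other hepatic secreted proteins and the visceral endoderm genes. By a smaller distance it is also the highest library for epithelium (856 CPM), pharyngeal endoderm (121 CPM), transport partners (739 CPM) and hepatic endoderm factors (92.1 CPM). It is at the left end for the erythroid genes (12900 CPM) and for crest mesenchyme (766 CPM).

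Against WT, HIRE1del gave lower fitted levels of the members in PA3, but none passed the test. With edgeR's quasi-likelihood test and adjustment over all 14383 genes tested, 0.216% of genes were called (adjusted p under 0.05), and 0 of the 6 members that passed the filter. All 6 had an unadjusted p under 0.05, and DESeq2 and limma-voom called 0 as well. The log2 fold change was -2.82 (SE 0.781, adjusted p = 0.273) for Afp, -2.62 (SE 0.692, adjusted p = 0.259) for Apob and -1.41 (SE 0.455, adjusted p = 0.344) for Rbp4, and it was -2.38 to -2.75 for Ttr, Apoa1 and Apoa4 (adjusted p = 0.32 to 0.376). Alb and Apoa2 did not reach 1 CPM in 2 libraries and were not tested. The size of these values depended on 1 library. Without PA3 WT replicate 1 the log2 fold changes were -0.47 to -0.95, with -0.79 for Afp (SE 0.423, adjusted p = 0.758), and 1 member (Apob) kept an unadjusted p under 0.05. In that library Afp was 18.3-fold above the median of the other 5 PA3 libraries.

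In PA2 the same comparison called 0.438% of genes and 0 of the 6 members tested, of which 0 had an unadjusted p under 0.05 and DESeq2 and limma-voom called 0. All of the 6 but Apob had passed the filter only through PA3, so this count says little about them. In PA2 of HIRE1del and WT, Afp had 3 and 6 counts (SE 5.75), Ttr 3 and 0 (SE 4.13) and Apoa4 1 and 0 (SE 4.26). Apoa1 had 11 and 16 counts and Rbp4 26 and 39. Apob, the one member at a substantial level, had a log2 fold change of -0.58 (SE 0.746, adjusted p = 0.878), although the 3 HIRE1del libraries were all below the 3 WT libraries. The share of all genes with groups so separated was not counted. That SE comes from a model that includes the PA3 libraries, where Apob varied widely. Fitted with the PA2 libraries alone, Apob had an edgeR unadjusted p of 0.0174 and an adjusted p of 0.47. Apoa2, not tested, had 4, 6 and 0 counts in WT and 15, 9 and 8 in HIRE1del. The CPM ratio of HIRE1del to WT was 3.5 (95% counting interval 1.68 to 7.99, which covers counting error only). The difference between the effects of HIRE1del in PA2 and PA3 was tested as an interaction, which called 0.0487% of genes and 0 of the 6 members, 0 of them at an unadjusted p under 0.05. DESeq2 and limma-voom called 0 too. With so few counts in PA2, the interaction could not decide for Afp (SE 7.36), Ttr (SE 4.52) or Apoa4 (SE 6.11). For Apob the difference (PA2 minus PA3) was 2.04 (SE 1.01, adjusted p = 0.887).

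PA3 against PA2 within HIRE1del is given as a description, because the spread of Afp over the PA3 libraries entered the choice of the members and because all members tested but Apob passed the filter on low values only through PA3. Afp had 3 counts in PA2 and 1196 in PA3, a CPM ratio of 376 (95% counting interval 128 to 1830). The ratio was 32.1 for Ttr (10.7 to 158), 15.7 for Apoa1 (8.57 to 32.0) and 8.38 for Rbp4 (5.57 to 13.1), and Apoa4 had 1 count in PA2 and 76 in PA3. For these 5 genes all 3 PA3 libraries were above all 3 PA2 libraries, but the share of all genes so separated was not counted. By a different measure, edgeR called 18.7% of all genes tested higher in PA3 and 14.7% lower. Apob, which was present in both arches, had a ratio of 1.64 (1.46 to 1.85) with overlapping groups. Apoa2 had 56 counts in PA3 and 32 in PA2, also with overlapping groups, and Alb had 0 in both.

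Genes of the other lists were tested between the arches of HIRE1del with edgeR, where 18.7% of all genes tested were called higher in PA3 and 14.7% lower. All 10 erythroid genes tested were higher in PA3, with a log2 fold change of 3.22 (SE 0.257) for Hba-x, together with 7 of 10 epithelial genes (Epcam 1.31, SE 0.12), 5 of 7 pharyngeal endoderm genes (Gcm2 4.92, SE 0.408), 4 of 6 heart muscle genes (Myl7 3.76, SE 0.775) and 5 of 6 endothelial genes (Tek 0.87, SE 0.0772). Of 10 crest mesenchyme genes 6 were lower in PA3, such as Dlx5 (-1.62, SE 0.104) and Dlx2 (-1.1, SE 0.0979), and 3 were higher, such as Prrx2 (0.5, SE 0.118). Among hepatic endoderm factors 7 of 13 were higher, such as Gata4 (CPM ratio 34.3, counting interval 14.4 to 107, adjusted p = 0.000269), Gata6 (log2 fold change 2.97, SE 0.272, adjusted p = 4.39e-06) and Hnf4a, which was at least 19.8-fold higher, and 1 was lower (Nr5a2, -2.71, SE 0.185, adjusted p = 4.52e-07). Of 7 other hepatic secreted proteins tested, C3 (3.54, SE 0.997, adjusted p = 0.015) and Vtn (2.33, SE 0.766, adjusted p = 0.0313) were higher, and of 3 visceral endoderm genes Cubn (3.13, SE 0.923, adjusted p = 0.019). Within PA3 of HIRE1del, C3 ran from 0.315 CPM (replicate 2) to 3.33 CPM (replicate 1). Vtn ran from 0.348 CPM (replicate 3) to 1.57 CPM (replicate 2). Genes such as Hnf4a, at most 0.0351 CPM in PA2, passed the filter only through PA3, a limit they share with the members. Of 15 transport partners 3 were higher and 3 lower, near the shares of all genes (18.7% and 14.7%). Among them were Abca1, which exports lipid to Apoa1 (0.51, SE 0.103, adjusted p = 0.00205), and Stra6, the receptor of Rbp4 (-0.62, SE 0.158, adjusted p = 0.00838). Over all genes the median log2 fold change was 0. The part of blood, epithelium, endoderm or heart tissue in the difference of the members between the arches was not tested.

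In the sorted neural crest cells of the stage series, Apob was the single member at more than 1 CPM, and it fell with stage. Its counts were 345, 337 and 455 in PA2 at E10.5, 20, 6 and 10 in the pinna at E12.5, and 0, 11 and 0 at E14.5. The level in PA2 was 12.7 ± 1.92 CPM (SD, n = 3), beside 8.2 ± 0.545 CPM in the unsorted PA2 of WT at the same age, a pair of values from tables that were scaled separately and were not tested against each other. From PA2 at E10.5 to the pinna at E12.5, Apob had a log2 fold change of -4.91 (SE 0.529, edgeR adjusted p = 8.74e-06), in a comparison where 33.7% of genes were lower. From PA2 at E10.5 to the pinna at E14.5 it was -7.26 (SE 0.624, adjusted p = 5.78e-07, with 40% of genes lower). From E12.5 to E14.5 it was -2.35 (SE 0.857, adjusted p = 0.0311, with 33.1% of genes lower), and this call was lost with DESeq2 (adjusted p = 0.0794) and without pinna E12.5 replicate 1 (adjusted p = 0.149), E14.5 replicate 1 (adjusted p = 0.0793) or E14.5 replicate 3 (adjusted p = 0.0752). Cells of E14.5 were released with papain and those of the earlier stages with trypsin, so that enzyme and stage cannot be told apart there. All 11 counts of E14.5 came from replicate 2. Without it that group had no count and the fitted values (-11.73 against PA2 and -6.81 against E12.5) depend on the prior count and are no bound. Leaving out 1 of the other libraries gave -6.7 to -7.33 against PA2 and -1.71 to -2.71 against E12.5.

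The other 7 members did not reach 1 CPM in 2 stage libraries and were not tested. Afp had 1, 1 and 0 counts over the 3 libraries of PA2, the pinna at E12.5 and the pinna at E14.5, where 0 counts allow up to 0.0216 CPM. Ttr had 1, 0 and 1 counts over these groups, and Apoa4 had 7 counts, all in 1 library of E14.5. Rbp4 was at 0.437 ± 0.157, 0.224 ± 0.141 and 0.548 ± 0.037 CPM (SD, n = 3), with all 3 libraries of E14.5 above those of E12.5. Apoa1 was at 0.447 ± 0.141, 0.352 ± 0.122 and 0.144 ± 0.0484 CPM, with all 3 libraries of E14.5 below the rest. For neither gene was the share of all genes so separated counted. Apoa2 did not exceed 0.163 CPM. In the same libraries the heart muscle genes summed to at most 1.02 CPM and the visceral endoderm genes to 32.9 to 82 CPM, of which 2 or 3 of 7 were at 0. Only 2 of these 7 passed the filter in the stage series, so the sum is no measure of the list as a whole.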

How the data were processed

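RNA was counted per gene in 12 genotype and 9 stage libraries. The authors made the deposited counts with QuasR and Rhisat2 by spliced alignment to GRCm38 (mm10) and exon counting against UCSC gene models with the orientation set to opposite, without normalization. The submitters' processing notes name bcl2fastq 2.17 and 2.20. Libraries were single-end (stage) or paired-end (genotype), so each table was analysed alone, and 0 columns were left unused. No symbol was given for 18 of the 24594 genes.

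Genes at 1 CPM or more in at least 2 libraries were tested (14383 and 13438) in R 4.3.3 with the edgeR 4.0.16 quasi-likelihood test after TMM scaling, 1 group-mean model per table, two-sided, with Benjamini-Hochberg adjustment over all genes tested. SEs are the log2 fold change divided by the root of the F statistic. DESeq2 1.42.0, limma-voom (limma 3.58.1), other scalings, filters, libraries and blocks were alternatives, and the steps were tested on simulated data. A group without counts was set against a floor of 3 counts, 0.0924 to 0.117 CPM for 1 genotype library and 0.0631 to 0.111 CPM for 1 stage library. Counting intervals are at 95% and cover counting error only. Where libraries of 2 groups are said to lie apart, the share of all genes that did so was not counted. Replicates were described as independent biological replicates, and chi-square per degree of freedom between them was 6.68 to 44.2, so none was a copy of another. Correlations used Python with scipy. Promoters came from RefSeq (GRCm38.p6) and gene positions from GENCODE (GRCm38).

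Whether equal replicate numbers pair libraries was checked by correlating deviations from group means. For PA2 with PA3 the WT pairs gave r = 0.382, 0.23 and 0.248, and the HIRE1del pairs 0.213, 0.284 and 0.342, all over 0.1. Libraries of different genotypes, which cannot share embryos, passed 0.1 in part as well. For replicate 3, PA2 of WT gave 0.276 with PA3 of HIRE1del and 0.236 with PA2 of HIRE1del, while other such values fell to -0.202. Unequal replicate numbers were not compared. Pairing of the arches within a genotype was therefore assumed for an alternative fit and not established. The assumption comes from the data and not from the labels.

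The members and the gene lists were chosen with earlier results of these data known. The text names all 8 members, the genes of other lists that were called, up to 4 per list and contrast by size of fold change, the 10 genes most like Afp by each of 2 measures, and Hoxa2 and Hoxa3 as a check. Fga, Hba-x, Rhox5 and Afm are also given for their counts in PA3, as chosen after their values were seen.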

Additional observations from a re-analysis of the deposited data

How the results depend on the processing

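Members called under the alternatives were compared with the main counts. In PA3 against PA2 of HIRE1del, where filter and choice of the members favoured calls so that the counts support nothing, 5 were called, 1 with limma-voom and 0 with a filter of 1 CPM in every library, which left 1 member to test, and leaving out 1 library gave 2 to 5. For Apob from E10.5 to E12.5 and to E14.5, leaving out 1 library gave 1 call throughout, and the filter of 1 CPM in every library left none to test (0 calls). From E12.5 to E14.5 the 1 call became 0 with DESeq2 and with the replicate block, and 0 to 1 when 1 library was left out. With the filter of 1 CPM in every library, and with only the libraries compared, Apob was filtered out and not tested in this comparison. Looser filters added members there, 3 calls with filterByExpr (Rbp4 with a log2 fold change of 1.3, adjusted p = 0.0303, and Apoa1 with -1.28, adjusted p = 0.0266, beside Apob) and 2 without a filter. From E10.5 to E14.5 both looser filters gave 2 calls, with Apoa1 at -1.62 (adjusted p = 0.00478, filterByExpr). HIRE1del against WT gave 0 calls in PA2, in PA3 and in the interaction under every alternative run. For Afp, Ttr and Apoa4, with few counts in PA2, this decides nothing there or in the interaction. In PA2 the log2 fold change of Apoa1, which did not pass the test, ranged from -0.68 to 0.08 when 1 library was left out, and was above 0 (0.08) only without PA2 WT replicate 1.

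The assumed pairing of PA2 and PA3 was fitted as a replicate block by embryo pool, which kept 5 calls in PA3 against PA2 of HIRE1del. A block by replicate number alone changed no call other than that of Apob from E12.5 to E14.5 (adjusted p = 0.0566).

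For the relation with Afp, leaving out 1 library gave r of 0.899 to 0.996 for Apoa1, 0.321 to 0.971 for Apoa2, 0.95 to 0.996 for Apoa4, 0.966 to 0.997 for Apob, 0.418 to 0.964 for Rbp4 and 0.975 to 0.99 for Ttr. The adjusted permutation p reached 0.05 or more without any 1 of 5 libraries for Apoa2, without any 1 of 4 for Rbp4 and without PA3 WT replicate 1 for Apoa1. With a pseudocount of 2 CPM the adjusted p of Apoa2 was 0.0514 (r = 0.92). The description of Afp in PA3 against PA2 of WT was a fitted log2 fold change of 10.4, and 8.37 to 10.93 when 1 library was left out. With a few counts in PA2, fitted fold changes of Afp, Ttr and Apoa4 depend on the prior count, and counting ratios are given in their place.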
